A study of Mus musculus with 22 samples.

Results

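Oocyte growth was followed in control mice by setting full-grown oocytes against growing oocytes of postnatal day 7 (P7), with 2 RNA-seq libraries at each stage. These 4 libraries were chosen by their labels from the 22 libraries of the series, in which oocytes and embryos of mice with and without maternal Setd2 were sequenced. SETD2 is the methyltransferase that places trimethylation on lysine 36 of histone H3 (H3K36me3), and the study compared its loss with that of the DNA methylation cofactor DNMT3L. The full-grown controls carry the genotype label Setd2_Con, and the protocol takes germinal vesicle oocytes from females 8 weeks old at 48 h after pregnant mare serum gonadotropin (PMSG), which drives follicle growth. The P7 controls carry the label Setd2+/-, so they are heterozygous, and their oocytes measured 20 to 30 µm. The allele behind Setd2_Con, the driver of the deletion and the number of oocytes or females behind a library are not given in the sources used here. Nothing in the labels says whether the 2 libraries of a stage came from separate animals.

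The mouse oocyte grows many-fold in volume while it stays arrested in the first meiotic prophase, and it stores the RNAs and proteins on which the early embryo depends until its own genome is transcribed. In that time it builds the zona pellucida, the glycoprotein coat that sperm bind, and signals to the granulosa cells around it. It also lays down maternal DNA methylation, including that of imprinted genes, in transcribed regions marked by H3K36me3. By the full-grown stage transcription has largely stopped, so its transcripts are a store rather than a current output.

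Levels are FPKM, the fragments counted for each kilobase of a transcript, scaled to the mapped fragments of the library, which allows levels of different genes to be set side by side. FPKM is a share of a library, so it does not give transcripts per oocyte. In pooled material, fewer cells of a type and less RNA per cell cannot be told apart. The stages were deposited in separate tables and carry different genotype labels, and PMSG is named for the full-grown stage alone, so stage, table, genotype label and PMSG cannot be told apart. No test was made across them. An exact permutation test of 2 libraries against 2 could give no p below 0.33. A change is the mean log2(FPKM + 1) of the full-grown libraries minus that of the P7 libraries, less the median of this difference over all genes tested, which was -0.46. A gene was called where its change was at least 2 in size, which is a ratio of 4, and both libraries of one stage lay above both of the other.

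Promoters of 5 genes are printed here because they stand among the germ cell genes with large changes in either direction. Oosp1, an oocyte-secreted protein, Zp3, a zona protein and sperm receptor, and Bmp15, a growth factor, were higher in full-grown oocytes. Sohlh1, a basic helix-loop-helix transcription factor of early oocytes, and Syce1, part of the synaptonemal complex that holds paired chromosomes together, were lower. Each sequence is the 250 bases before the gene's start in RefSeq, build GRCm38.p6, written 5′ to 3′ on the gene's strand. Capitals mark CANNTG, the E-box bound by basic helix-loop-helix factors such as FIGLA and SOHLH1, and the motif TAATTA, which homeodomain factors such as NOBOX bind. The form TAATTG was marked as well, and both strands were searched for each motif. The E-box and homeodomain matches do not overlap in these promoters.
Oosp1: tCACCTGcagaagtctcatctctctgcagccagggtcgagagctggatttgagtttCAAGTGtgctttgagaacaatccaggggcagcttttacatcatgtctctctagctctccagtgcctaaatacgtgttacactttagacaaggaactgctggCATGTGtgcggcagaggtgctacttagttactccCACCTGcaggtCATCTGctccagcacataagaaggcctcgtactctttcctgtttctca
Zp3: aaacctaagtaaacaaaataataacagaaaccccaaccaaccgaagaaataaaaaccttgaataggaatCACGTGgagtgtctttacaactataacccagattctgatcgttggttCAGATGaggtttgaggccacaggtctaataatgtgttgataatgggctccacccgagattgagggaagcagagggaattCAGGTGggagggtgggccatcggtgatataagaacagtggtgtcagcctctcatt
Bmp15: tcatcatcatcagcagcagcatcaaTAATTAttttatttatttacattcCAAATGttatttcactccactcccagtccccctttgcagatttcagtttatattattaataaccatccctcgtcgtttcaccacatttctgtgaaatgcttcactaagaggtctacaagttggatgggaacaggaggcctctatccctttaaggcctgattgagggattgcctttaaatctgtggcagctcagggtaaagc
Sohlh1: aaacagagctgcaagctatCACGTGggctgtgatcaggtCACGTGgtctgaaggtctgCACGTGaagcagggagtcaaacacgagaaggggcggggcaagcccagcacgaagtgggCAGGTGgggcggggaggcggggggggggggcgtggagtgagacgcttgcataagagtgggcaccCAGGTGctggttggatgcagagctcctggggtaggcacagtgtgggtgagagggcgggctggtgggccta
Syce1: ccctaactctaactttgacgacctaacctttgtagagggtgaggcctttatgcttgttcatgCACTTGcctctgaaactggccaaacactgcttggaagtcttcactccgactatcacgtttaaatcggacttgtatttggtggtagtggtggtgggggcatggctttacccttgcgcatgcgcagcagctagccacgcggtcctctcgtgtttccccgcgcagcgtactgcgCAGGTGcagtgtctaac
They lie at chr19:11691052-11691301, minus strand (Oosp1), chr5:135979855-135980104, plus strand (Zp3), chrX:6320725-6320974, minus strand (Bmp15), chr2:25847249-25847498, minus strand (Sohlh1) and chr7:140787855-140788104, minus strand (Syce1). Oosp1 and Sohlh1 each hold 5 E-boxes, Zp3 holds 3, Syce1 holds 2 and Bmp15 holds 1, and only Bmp15 of these holds the homeodomain motif. Of all 27025 promoter windows of this length, 66.0% hold an E-box and 11.5% the homeodomain motif, and the promoters shown hold an E-box in both directions of change. CG pairs numbered 11 in Sohlh1 and 13 in Syce1, against 4 in Oosp1, 5 in Zp3 and 2 in Bmp15, with a median of 6 over all windows. The called sets were not compared by promoter: a RefSeq promoter was matched to 1365 of the 1756 genes called higher (77.7%), below the 80% set for such a check, which is therefore void.

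Oocyte markers as a group were high in all 4 libraries. All 16 oocyte markers on the list passed the filter, and their summed level was 27569 and 27608 FPKM in the full-grown libraries, against 7000.5 and 8063 FPKM in the P7 libraries. Between the stages 8 of the 16 were called higher in full-grown libraries and 2 lower, by the rule given above. The shares were 50.0% and 12.5%, against 15.2% and 10.0% of all genes. Of 24 granulosa and cumulus cell markers 5 passed the filter, and 4 of these 5 were called higher in full-grown libraries and none lower. The 4 called passed the filter through the full-grown libraries, so their direction was largely set by the filter. Their share, 80% against 15.2% of all genes tested, is no measure of enrichment. The 24 summed to 47.6 and 43.3 FPKM in the full-grown Setd2 control libraries and to 92.1 FPKM in the full-grown library of another control, labelled Dnmt3l_Con, against 3.58 and 6.83 FPKM in P7 libraries. Inha, an inhibin subunit, had 14.8 and 15.1 FPKM in full-grown and 0.234 and 1.07 FPKM in P7 libraries. Cyp19a1, the aromatase that makes oestrogen, had 15.4 and 13.6 FPKM in full-grown libraries and was listed at 0 in both P7 libraries. Cyp11a1 and Nr5a2 were the other called markers, at up to 3.89 FPKM. Other defining granulosa markers were at or near 0 in every library, with Amh at 0.0280 and 0.0670 FPKM in full-grown libraries and listed at 0 in P7 libraries, Foxl2 at up to 0.145 FPKM, and Wt1 listed at 0 in all 4. Of 17 markers of stroma, theca, blood and vessels found in the tables, Cd68 was called higher and none lower, with sums of 9.73 and 11.96 FPKM in full-grown and 6.76 and 4.75 FPKM in P7 libraries. The part of granulosa or other somatic RNA in the results below was not tested.

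Depth was estimated over 3708 genes with a single transcript. The most common value below 1 of FPKM times length in kb was taken as 1 fragment. It gave about 23.7 and 9.44 M fragments for the full-grown libraries and 5.96 and 5.31 M for the P7 libraries. These are centres of histogram bins and so are coarse. A single fragment on a transcript of 1 kb is then worth 0.0422 and 0.106 FPKM in full-grown libraries and 0.168 and 0.188 FPKM in P7 libraries, so values below that are not resolved. At least 1 FPKM was reached by 9853 and 9982 genes in full-grown libraries and by 10532 and 10554 genes in P7 libraries.

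Of 22592 genes in the tables, 11582 had at least 1 FPKM in at least 2 of the 4 libraries. In full-grown oocytes 1756 of these were called higher (15.2%) and 1159 lower (10.0%), and without the centring on the median the split was 1247 higher and 1884 lower. Relative to the median, 60.2% of calls were higher, against 39.8% without centring. With no filter the median difference was -0.04, and 41.4% of calls relative to it were higher. The side with more calls thus depends on the filter as well as on the centring. Among genes called higher, 447 were listed at 0 in both P7 libraries, and among those called lower 20 were listed at 0 in both full-grown libraries. Values of 0 were commoner at P7 over all 22592 genes, with 9475 and 9456 in the P7 libraries and 6419 and 7002 in the full-grown libraries. The P7 libraries were also shallower. Large changes ran mostly upward: 126 genes were higher by 6 or more on the log2 scale and 4 were lower by as much, and without the centring these counts were 100 and 11.

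**Figure D1:**
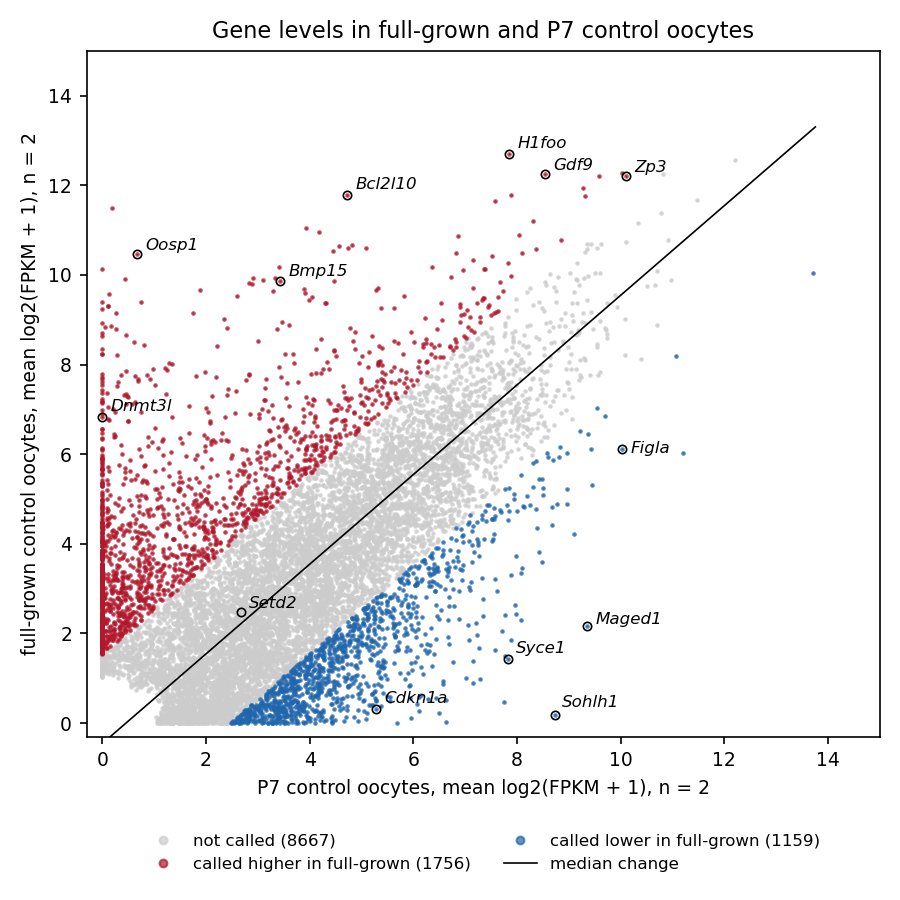
Mean log2(FPKM + 1) of the 2 full-grown control libraries (vertical axis) against that of the 2 P7 control libraries (horizontal axis), 1 point for each of 11582 genes, with the line of the median change. The 1756 genes called higher in full-grown oocytes reach far above the line, Oosp1 among them, and many sit on the left edge at 0 in P7, while the 1159 called lower spread less far, with Sohlh1 the farthest.

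The stages differed by far more than their replicates. The median size of the change between stages was 1.17 on the log2 scale, against 0.175 between the 2 full-grown replicates and 0.261 between the 2 P7 replicates. Only 7 genes (0.0604%) differed by 2 or more between full-grown replicates, and 52 (0.449%) between P7 replicates. The full-grown Dnmt3l control library, deposited in another table than the Setd2 controls, shows how far tables of a single stage can differ. Between the full-grown Setd2 controls and that library, 435 of 10647 genes had a change of at least 2 in size without overlap (4.09%), so some calls between the stages can be of that kind. In that comparison 2 libraries stood against 1, and genes entered with 1 FPKM in any 1 library. Its filter and its condition of no overlap were thus looser than those between stages. Values of the Dnmt3l control library are given below for some of the genes where they depart from those of the Setd2 controls.

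**Figure D2:**
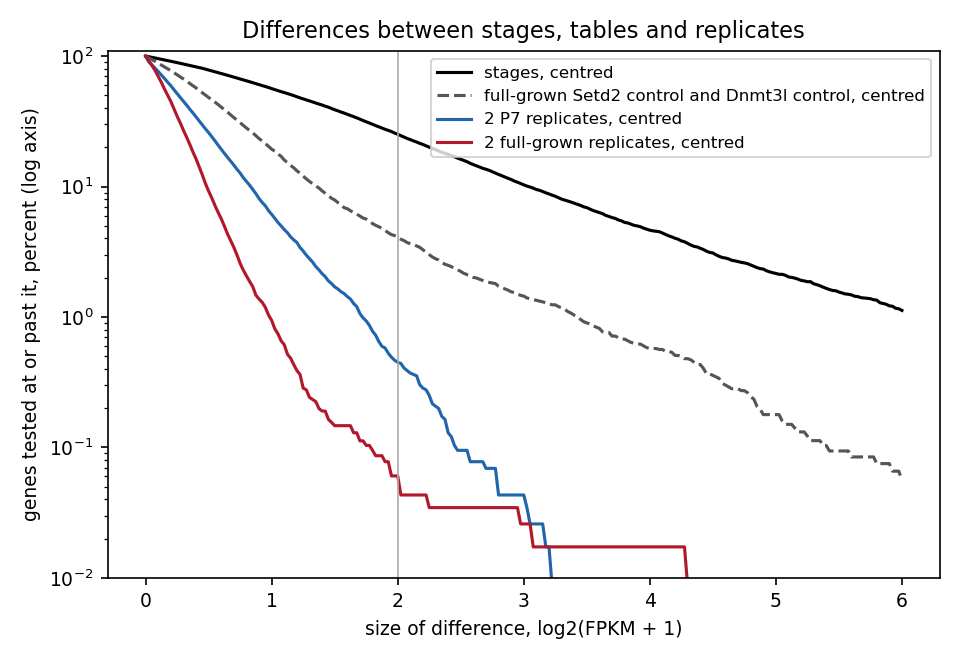
Percent of genes tested (vertical log axis) whose difference on the log2(FPKM + 1) scale is at or past the size on the horizontal axis, between stages, between full-grown oocytes of different tables, and between replicates, each centred on its median. At 2, marked by the vertical line, replicates lie at 0.0604% and 0.449%. The curves are drawn without the condition that libraries do not overlap. With that condition, 4.09% of genes were called between the full-grown Setd2 controls and the Dnmt3l control, a value that is not read from the curve.

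Genes of the zona and of sperm recognition were higher in full-grown oocytes, with 5 of 7 tested members called higher and none lower (median change 2.84, against 0 over all genes by construction). The share called higher was 71.4%, against 15.2% of all genes. With quantile normalization 3 of the 7 were called higher and the median was 1.89. Zp1, which cross-links zona filaments, had 1588 and 1299 FPKM in full-grown libraries and 287 and 262 FPKM in P7 libraries, a change of 2.84. Zp3 had 5023 and 4476 FPKM in full-grown libraries and 964 and 1243 FPKM in P7 libraries, a change of 2.57. Zp2, the zona protein cleaved after fertilisation, was already high at P7, with 1570.1 and 1853 FPKM in full-grown libraries and 903 and 1328 FPKM in P7 libraries, and was not called. All 3 zona genes had both full-grown Setd2 control libraries above both P7 libraries, by very different margins, but the full-grown Dnmt3l control library had 659 FPKM of Zp2, below both P7 libraries. Oosp1 was close to absent at P7, with 1125 and 1786 FPKM in full-grown libraries and 0.441 and 0.754 FPKM in P7 libraries, a change of 10.26. Astl, the cortical granule protease ovastacin that cleaves ZP2, had 249 and 279 FPKM in full-grown libraries against 39.0 and 39.1 FPKM in P7 libraries (change 3.18). Folr4, the egg surface receptor for sperm now called JUNO, had 317 and 423 FPKM in full-grown libraries against 34.6 and 22.1 FPKM in P7 libraries (change 4.14). Cd9, the tetraspanin of the egg membrane needed for fusion, overlapped between stages, at 209 and 240.0 FPKM in full-grown libraries and 225 and 180.3 FPKM in P7 libraries.

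Genes of oocyte signalling and of gap junctions with granulosa cells were higher as well, with 6 of 9 tested members called higher and none lower (median change 2.68). The share called higher was 66.7%, against 15.2% of all genes. Without centring 5 were called higher. Gdf9, a growth factor of the transforming growth factor beta family, had 4918 and 4876 FPKM in full-grown libraries and 367 and 373 FPKM in P7 libraries, a change of 4.18. Bmp15, its partner in the same family, had 989 and 888 FPKM in full-grown libraries and 10.2 and 9.37 FPKM in P7 libraries, a change of 6.90. The ratio of mean Gdf9 to mean Bmp15 was thus 5.22 in full-grown libraries and 37.9 in P7 libraries, while the difference in FPKM was larger in full-grown libraries. Fgf8, which acts with BMP15 on cumulus cell metabolism, had 159 and 186 FPKM in full-grown libraries and was listed at 0 in both P7 libraries. Bmp6 had 28.2 and 24.4 FPKM in full-grown libraries and 0.602 and 2.14 FPKM in P7 libraries. Gja4, connexin 37 of the gap junctions between oocyte and granulosa cell, had 718 and 889 FPKM in full-grown libraries and 209.8 and 214 FPKM in P7 libraries, and Gpr3, the receptor that keeps cyclic AMP high during meiotic arrest, had 28.0 and 29.1 FPKM against 5.71 and 4.95 FPKM. The receptor gene Kit, through which granulosa KIT ligand acts on the oocyte, was below its P7 level in both full-grown libraries, at 37.9 and 40.9 FPKM in full-grown and 89.5 and 103 FPKM in P7 libraries, and was not called. Gja1 and Pde3a were the other members tested and not called.

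**Figure D3:**
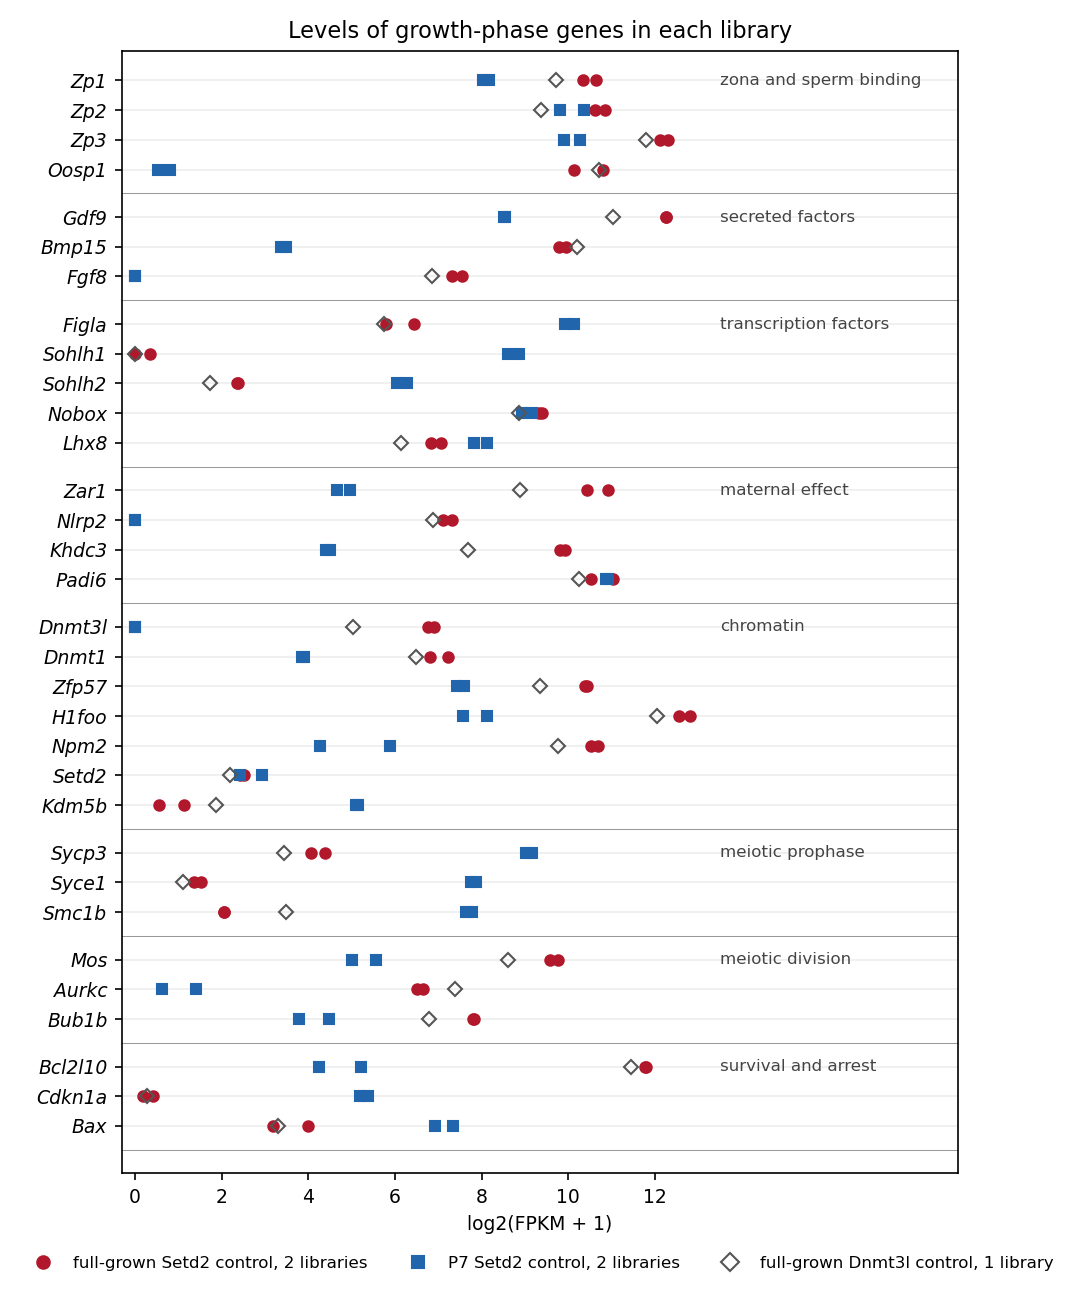
log2(FPKM + 1) of genes of growth, 1 row each and grouped by role, in the 2 full-grown Setd2 control libraries (filled circles), the 2 P7 control libraries (squares) and the full-grown Dnmt3l control library (open diamonds). Full-grown circles lie right of the P7 squares for the secreted factors and left of them for Figla, Sohlh1, Sohlh2 and the meiotic prophase genes, while Setd2 and Padi6 overlap. The diamond lies on the full-grown side of the P7 squares for most of them, but not for Zp2, Nobox or Padi6.

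The transcription factors that build the primordial follicle and the growing oocyte divided by gene, with 3 of 16 called higher, 18.8% against 15.2% of all genes, and 4 lower, 25.0% against 10.0% (median change -0.39). Sohlh1 had 0 and 0.273 FPKM in full-grown libraries and 462 and 393 FPKM in P7 libraries, a change of -8.11, the lowest of the genes named here. Its partner Sohlh2 had 4.17 and 4.08 FPKM in full-grown libraries against 76.8 and 65.5 FPKM in P7 libraries (change -3.35). Figla, the E-box factor needed for zona gene expression, had 54.6 and 86.0 FPKM in full-grown libraries against 1129.9 and 974 FPKM in P7 libraries (change -3.46), while Zp1 and Zp3 were higher in full-grown oocytes. Nobox, the oocyte homeobox factor, was high at both stages and not called, at 677 and 645 FPKM in full-grown libraries and 491 and 576 FPKM in P7 libraries, with 467 FPKM in the Dnmt3l control library, below both P7 libraries. Lhx8, a LIM homeobox factor, was not called either, at 113 and 132 FPKM in full-grown libraries and 226 and 279 FPKM in P7 libraries. Sohlh1, Sohlh2 and Figla therefore had both full-grown libraries far below both P7 libraries, whereas in the Setd2 controls Nobox lay slightly above and Lhx8 below with changes under the threshold.

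The same list of 16 holds the following factors. Gtf2a1l, the germ cell form of TFIIA, had 152 and 98.4 FPKM in full-grown libraries and 4.07 and 2.38 FPKM in P7 libraries (change 5.35). Taf7l, a germ cell subunit of TFIID, had 0 and 0.0564 FPKM in full-grown libraries and 8.95 and 17.5 FPKM in P7 libraries (change -3.27). Tbpl2, which replaces TBP in growing oocytes, was not called, at 22.8 and 18.8 FPKM in full-grown libraries and 42.6 and 50.2 FPKM in P7 libraries. Sall4, a zinc finger factor of germ and stem cells, had 125 and 91.9 FPKM in full-grown libraries and 24.3 and 18.2 FPKM in P7 libraries (change 2.75). The other factor called higher was Obox5, described with its cluster below. Of the 45 genes of the RNA polymerase II machinery, 4 were called higher and 3 lower (median change 0.03, of no fixed sign over the alternatives). That is 8.89% and 6.67%, against 15.2% and 10.0% of all genes. Regulators of primordial follicle activation had 2 of 15 called lower, 13.3% against 10.0% of all genes, and none higher. These were Tsc2, a brake on mTOR, and Cdkn1b, the cell cycle inhibitor p27. Cdkn1b had 1.05 and 0.530 FPKM in full-grown Setd2 control libraries and 29.8 and 22.3 FPKM in P7 libraries, but 94.1 FPKM in the full-grown Dnmt3l control library, on the other side of P7.

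Tandem families of oocyte-specific genes held 9 of the 20 largest rises by the naming rule and none of the 20 largest falls. Of 27 tested members of the Obox, Oog, Oas1, Tcl1b and Fbxw clusters, 24 were called higher and none lower (median change 6.65), and 24 were so called under each alternative processing other than the changes of fold. The share called higher was 88.9%, against 15.2% of all genes. Members of these clusters are near-identical copies, so reads may be divided among them by the authors' counting and single values are uncertain. Obox1, an oocyte homeobox gene, had 661 and 613 FPKM in full-grown libraries against 0 and 0.166 FPKM in P7 libraries. Obox5 had 609.9 and 596 FPKM in full-grown libraries and was listed at 0 in both P7 libraries. Fbxw28, of a cluster of F-box and WD40 proteins, had 795 and 722 FPKM in full-grown libraries against 0 and 0.196 FPKM in P7 libraries. Oog4 had 506 and 465 FPKM in full-grown libraries and was listed at 0 in both P7 libraries. Each of these was at most 0.196 FPKM in P7 oocytes and at least 465 FPKM in full-grown oocytes. Such members passed the filter through the full-grown libraries alone and could not be called lower. The share of the clusters called higher is therefore no measure of enrichment. The NLRP proteins of the oocyte, relatives of inflammasome proteins, behaved alike, with 8 of 11 called higher and none lower (median change 7.28). That is 72.7%, against 15.2% of all genes. Nlrp9b had 232 and 201 FPKM in full-grown libraries against 0.0470 and 0.590 FPKM in P7 libraries, and Nlrp2, Nlrp4a and Nlrp9c were listed at 0 in both P7 libraries. These members too passed the filter through the full-grown libraries alone, so the share of the family is no measure of enrichment either.

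Maternal effect genes, whose products act in the embryo, had 15 of 29 members called higher and none lower (median change 2.10). That is 51.7% higher, against 15.2% of all genes. With quantile normalization 12 of the 29 were called higher and the median was 1.68. The subcortical maternal complex, an assembly under the egg surface, differed from member to member. Its members Khdc3 and Ooep were higher, Khdc3 at 975 and 894 FPKM in full-grown and 20.3 and 21.8 FPKM in P7 libraries, and Ooep at 1403 and 2553 FPKM in full-grown and 284 and 243 FPKM in P7 libraries. Nlrp5 overlapped between stages, at 505 and 479 FPKM in full-grown and 301 and 529.7 FPKM in P7 libraries, and so did Padi6, at 1472 and 2109 FPKM in full-grown and 1885 and 1951 FPKM in P7 libraries, with 1216 FPKM in the Dnmt3l control library. Tle6 had both full-grown libraries above both P7 libraries, at 1044 and 1438 FPKM in full-grown and 561 and 588 FPKM in P7 libraries, but was not called. Zar1, a translational regulator of stored mRNA, had 1377 and 1945 FPKM in full-grown libraries and 24.5 and 30.3 FPKM in P7 libraries (change 6.32). Its relative Zar1l had 371 and 429.7 FPKM in full-grown libraries and was listed at 0 in both P7 libraries. Sebox, a homeobox maternal factor, had 48.5 and 55.3 FPKM in full-grown libraries against 0 and 0.156 FPKM in P7 libraries.

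Among genes for storing and translating mRNA, 9 of 33 were called higher and 2 lower (median change 0.66). That is 27.3% and 6.06%, against 15.2% and 10.0% of all genes. Pabpc1l, the oocyte poly(A)-binding protein, had 58.4 and 78.7 FPKM in full-grown libraries and was listed at 0 in both P7 libraries, whereas the general Pabpc1 had 3.43 and 3.06 FPKM in full-grown and 30.9 and 24.9 FPKM in P7 libraries. Eif4e1b, the oocyte form of the cap-binding protein, had 74.7 and 37.3 FPKM in full-grown libraries and was listed at 0 in both P7 libraries. Pabpn1l had 131 and 285 FPKM in full-grown libraries against 0 and 0.537 FPKM in P7 libraries. Ddx6, a helicase of RNA granules, had 0.809 and 0.920 FPKM in full-grown libraries against 20.2 and 14.1 FPKM in P7 libraries.

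Dnmt3l, the cofactor that activates de novo DNA methylation in oocytes, had 107 and 118 FPKM in full-grown libraries and was listed at 0 in both P7 libraries. The full-grown Dnmt3l control library held 31.7 FPKM. Of 14 DNA methylation genes, 4 were called higher, 28.6% against 15.2% of all genes, and none lower. Their median change of 0.13 turns negative without centring, with no filter and with quantile normalization. Dnmt1, the maintenance methyltransferase, had 111 and 149 FPKM in full-grown libraries and 13.5 and 14.0 FPKM in P7 libraries (change 3.59). Zfp57, which keeps methylation at imprints after fertilisation, had 1376 and 1345 FPKM in full-grown libraries and 172 and 193 FPKM in P7 libraries (change 3.35). Tet3, which oxidises methylcytosine in the zygote, had 18.2 and 21.0 FPKM in full-grown libraries and 3.44 and 3.35 FPKM in P7 libraries (change 2.69). Dnmt3a, the de novo methyltransferase of oocytes, was above its P7 level in both full-grown libraries but not called, at 13.2 and 13.1 FPKM in full-grown and 7.58 and 6.83 FPKM in P7 libraries. Uhrf1, the partner of DNMT1, overlapped between stages, at 77.2 and 97.4 FPKM in full-grown and 94.6 and 114 FPKM in P7 libraries.

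Setd2 itself overlapped between stages, at 4.75 and 4.35 FPKM in full-grown libraries and 4.33 and 6.68 FPKM in P7 libraries, the P7 libraries being labelled heterozygous. Among 20 genes that write, read or erase H3K36 methylation, 1 was called higher and 4 lower, 5.0% and 20.0% against 15.2% and 10.0% of all genes (median change -0.24). With the full-grown Dnmt3l control library in place of the Setd2 controls, 1 was called higher and 2 lower. Setmar had 14.1 and 13.7 FPKM in full-grown libraries and 0.627 and 0.834 FPKM in P7 libraries. Smyd2, a SET and MYND domain methyltransferase, had 8.52 and 5.74 FPKM in full-grown libraries and 89.2 and 104 FPKM in P7 libraries (change -3.15). Morf4l1, a reader of H3K36me3, had 3.36 and 2.91 FPKM in full-grown libraries and 37.2 and 36.7 FPKM in P7 libraries (change -2.74), with 21.0 FPKM in the Dnmt3l control library. Whsc1l1 (NSD3) and the demethylase Kdm4b were the other members called lower. Nsd1, the enzyme of dimethylation, was not called, at 6.47 and 6.57 FPKM in full-grown and 10.3 and 8.55 FPKM in P7 libraries.

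H3K4 methylation genes had 1 of 17 members called higher, Dpy30, and 3 called lower, 5.88% and 17.6% against 15.2% and 10.0% of all genes. Kdm5b, which removes H3K4 methylation, had 1.19 and 0.458 FPKM in full-grown libraries and 33.1 and 34.5 FPKM in P7 libraries (change -3.83). Its relative Kdm5a had 0.216 and 0.302 FPKM in full-grown libraries and 25.3 and 22.8 FPKM in P7 libraries (change -3.85). The other was the methyltransferase Setd1b. Kdm1b, the demethylase needed for imprints in oocytes, was below its P7 level in both full-grown libraries and not called, at 39.5 and 45.9 FPKM in full-grown and 112 and 122 FPKM in P7 libraries. Polycomb genes had 6 of 18 called higher and 1 lower, 33.3% and 5.56% against 15.2% and 10.0% of all genes. Their median change of 0.41 turns negative without centring and with no filter. Pcgf1, a subunit of a variant Polycomb repressive complex, had 1848 and 1387 FPKM in full-grown libraries and 22.0 and 23.3 FPKM in P7 libraries (change 6.54). Ezh2, the H3K27 methyltransferase, had 69.8 and 66.8 FPKM in full-grown libraries and 16.5 and 16.2 FPKM in P7 libraries (change 2.46), and Cbx7 was the member called lower.

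Of 20 linker and variant histone genes and their partners, 4 were called higher and 1 lower (median change 0.52). The shares were 20.0% and 5.0%, against 15.2% and 10.0% of all genes. H1foo, the oocyte linker histone and the most abundant gene in the second full-grown library, had 7245 and 6001 FPKM in full-grown libraries and 189.8 and 279 FPKM in P7 libraries (change 5.29). Npm2, the histone chaperone that remodels sperm chromatin, had 1470.2 and 1654 FPKM in full-grown libraries and 18.2 and 58.5 FPKM in P7 libraries (change 5.99). Slbp, which binds the stem-loop of histone mRNA, had 1092 and 1219 FPKM in full-grown libraries and 80.3 and 82.2 FPKM in P7 libraries (change 4.27). In the other direction, H2afy, which codes for the variant macroH2A1, had 6.20 and 5.44 FPKM in full-grown libraries and 185 and 142 FPKM in P7 libraries (change -4.13).

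Of 27 genes of meiotic prophase, 8 were called lower in full-grown oocytes, 29.6% against 10.0% of all genes, and 2 higher (median change -1.03). Pairing and recombination of chromosomes are over before birth in the mouse, and these transcripts were still present at P7. Syce1 had 1.86 and 1.56 FPKM in full-grown libraries and 235 and 217 FPKM in P7 libraries (change -5.93). Sycp3, of the axial elements, had 15.7 and 19.9 FPKM in full-grown libraries and 575 and 520.5 FPKM in P7 libraries (change -4.42). Smc1b, the meiotic cohesin subunit, had 3.17 and 3.17 FPKM in full-grown libraries and 199 and 219 FPKM in P7 libraries (change -5.20). Tex15 was also lower, at 6.67 and 4.30 FPKM in full-grown and 59.4 and 65.7 FPKM in P7 libraries. Against this direction, Syce2, another central element protein, had 568 and 609 FPKM in full-grown libraries and 212 and 187 FPKM in P7 libraries (change 2.01, close to the threshold), and Psmc3ip, a recombination cofactor, had 58.8 and 62.4 FPKM in full-grown and 27.5 and 14.6 FPKM in P7 libraries. Neither was called without centring.

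The small RNA machinery of germ cells had 5 of 18 members called lower and 3 higher (median change -0.24). That is 27.8% and 16.7%, against 10.0% and 15.2% of all genes. Piwil2, a PIWI protein, had 0.559 and 0.430 FPKM in full-grown libraries and 40.6 and 51.7 FPKM in P7 libraries (change -4.51). Mov10l1, the helicase that feeds precursors to it, had 2.26 and 1.64 FPKM in full-grown libraries and 77.3 and 90.0 FPKM in P7 libraries (change -4.39). Tdrd12 went the other way, with 211 and 225 FPKM in full-grown libraries and 4.06 and 8.91 FPKM in P7 libraries (change 5.40). Ddx4, the germ cell helicase VASA, had 19.9 and 22.9 FPKM in full-grown libraries and 123 and 146 FPKM in P7 libraries (change -2.14).

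Of 36 genes for the meiotic divisions, which follow once growth is complete, 12 were called higher and none lower (median change 1.47). The share called higher was 33.3%, against 15.2% of all genes. Mos, the kinase that holds the egg at metaphase, had 759 and 872 FPKM in full-grown libraries and 31.1 and 46.3 FPKM in P7 libraries (change 4.84). Aurkc, the germ cell Aurora kinase, had 90.6 and 99.8 FPKM in full-grown libraries and 0.531 and 1.66 FPKM in P7 libraries (change 6.03). Bub1b, of the spindle checkpoint, had 222 and 224 FPKM in full-grown libraries and 12.7 and 21.4 FPKM in P7 libraries (change 4.13), and Fbxo5 (EMI1), an inhibitor of the anaphase-promoting complex, had 143 and 154 FPKM in full-grown and 13.4 and 18.4 FPKM in P7 libraries. Each had both full-grown libraries above both P7 libraries. For egg activation, 4 of 13 genes were called higher and 1 lower, 30.8% and 7.69% against 15.2% and 10.0% of all genes. With the Dnmt3l control library in place of the Setd2 controls, 2 were called higher. Pla2g4c, a phospholipase, had 169 and 207 FPKM in full-grown libraries and 0.466 and 1.81 FPKM in P7 libraries (change 6.99), whereas Itpr1, the receptor through which calcium is released at fertilisation, was lower, at 2.21 and 2.38 FPKM in full-grown and 19.6 and 17.8 FPKM in P7 libraries (change -2.12).

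Survival and arrest genes moved in both directions, with 4 of 17 called higher and 5 lower (median change -1.04). The shares were 23.5% and 29.4%, against 15.2% and 10.0% of all genes. Bcl2l10, a BCL2 relative of oocytes, averaged 3529 ± 23.3 FPKM in full-grown libraries and 27.0 ± 12.7 FPKM in P7 libraries (SD, n = 2 each; change 7.51). Mdm4, an inhibitor of p53, had 465 and 389 FPKM in full-grown libraries and 24.5 and 32.4 FPKM in P7 libraries (change 4.32). The p53 target Cdkn1a had 0.143 and 0.343 FPKM in full-grown libraries and 40.4 and 35.5 FPKM in P7 libraries (change -4.51). Bax, which permeabilises mitochondria, had 8.07 and 15.0 FPKM in full-grown libraries and 121 and 161 FPKM in P7 libraries (change -3.09). Mcl1, an anti-apoptotic relative of Bcl2l10, had 0.630 and 0.766 FPKM in full-grown libraries and 9.76 and 15.7 FPKM in P7 libraries, so genes that block apoptosis were found in both directions.

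Ribosomal protein genes were lower in the Setd2 controls, but not in the other full-grown library. In the Setd2 controls 19 of 77 were called lower, 24.7% against 10.0% of all genes, and 1 higher, 1.3% against 15.2% (median change -0.91). With the Dnmt3l control library in place of the Setd2 controls, 4 were called lower and 14 higher, and the median was 0.31. Rps19 had 27.8 and 29.2 FPKM in full-grown libraries and 552 and 447 FPKM in P7 libraries, against 63.7 FPKM in the Dnmt3l control library. Rps28 had 1.84 and 1.94 FPKM in full-grown libraries and 35.1 and 24.7 FPKM in P7 libraries, but 70.5 FPKM in the Dnmt3l control library, above P7. Ribosomal protein genes have many processed copies and 2 of them, Rps12 and Rpl12, were listed at 0 in a full-grown library, so their values are uncertain. Ribosome biogenesis factors had 1 of 35 called lower and none higher (median change -0.78), against 4 lower with the Dnmt3l control library (median -0.94). The share called lower in the Setd2 controls, 2.86%, was below the 10.0% of all genes.

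Oxidative phosphorylation had 3 of 77 genes called higher and 3 lower, 3.9% each way, against 15.2% and 10.0% of all genes, with 6 lower where the Dnmt3l control library replaced the Setd2 controls. Its extremes were Ndufs5 of complex I, with 64.4 and 30.2 FPKM in full-grown libraries and 0.000705 and 7.09 FPKM in P7 libraries, and Uqcrc1 of complex III, with 18.5 and 20.3 FPKM in full-grown and 325 and 345 FPKM in P7 libraries. Proteasome genes had 2 of 36 called higher and 1 lower, 5.56% and 2.78%, below the shares of all genes. In glycolysis and pyruvate use, 3 of 21 were called higher and 2 lower, 14.3% and 9.52%, near the shares of all genes. Ldhb, the lactate dehydrogenase subunit of the oocyte, had 5479.6 and 4507 FPKM in full-grown libraries and 1087 and 1007 FPKM in P7 libraries (change 2.70). Gapdh, often used as a constant reference, had 8.31 and 12.3 FPKM in full-grown libraries and 93.5 and 81.8 FPKM in P7 libraries (change -2.54). The medians of the oxidative phosphorylation and proteasome lists turn negative without centring, with no filter and with quantile normalization, oxidative phosphorylation also with a pseudocount of 5, and that of glycolysis was 0.

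Chaperones had 5 of 26 called lower and 2 higher, 19.2% and 7.69% against 10.0% and 15.2% of all genes. With the Dnmt3l control library in place of the Setd2 controls, 3 were called lower. Hsp90ab1 had 104 and 124 FPKM in full-grown libraries and 809 and 843 FPKM in P7 libraries (change -2.39), and Pdia3, of the endoplasmic reticulum, had 12.7 and 20.9 FPKM in full-grown and 177 and 195 FPKM in P7 libraries (change -2.97). Of 36 DNA replication genes 4 were called higher and 2 lower, 11.1% and 5.56% against 15.2% and 10.0% of all genes. Immediate early genes, which respond within minutes to handling and signals, had 1 of 11 called higher, Dusp1, and 2 lower, Fos and Ier2. Those shares are 9.09% and 18.2%, against 15.2% and 10.0% of all genes. Ier2 had 0.776 and 1.64 FPKM in full-grown libraries and 70.2 and 49.3 FPKM in P7 libraries (change -4.33).

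Imprinted genes and others next to maternally methylated regions had 4 of 22 called higher and 4 lower, 18.2% each way, against 15.2% and 10.0% of all genes. Mest, silenced by maternal methylation in the embryo, had 124 and 96.6 FPKM in full-grown libraries and 2.74e-10 and 0.164 FPKM in P7 libraries (change 7.14). Gpr1 (Zdbf2 region) had 234 and 279.9 FPKM in full-grown libraries and 2.53 and 0.842 FPKM in P7 libraries (change 7.11). H13 had 234 and 238 FPKM in full-grown and 20.1 and 16.4 FPKM in P7 libraries (change 4.09), while Mcts2, a gene inside an H13 intron, had 2.53 and 1.71 FPKM in full-grown and 53.7 and 67.7 FPKM in P7 libraries (change -3.85). Impact had 0.830 and 1.11 FPKM in full-grown libraries and 53.9 and 59.5 FPKM in P7 libraries (change -4.42). The host gene H13 and its intronic neighbour Mcts2 thus lay on opposite sides.

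**Figure D4:**
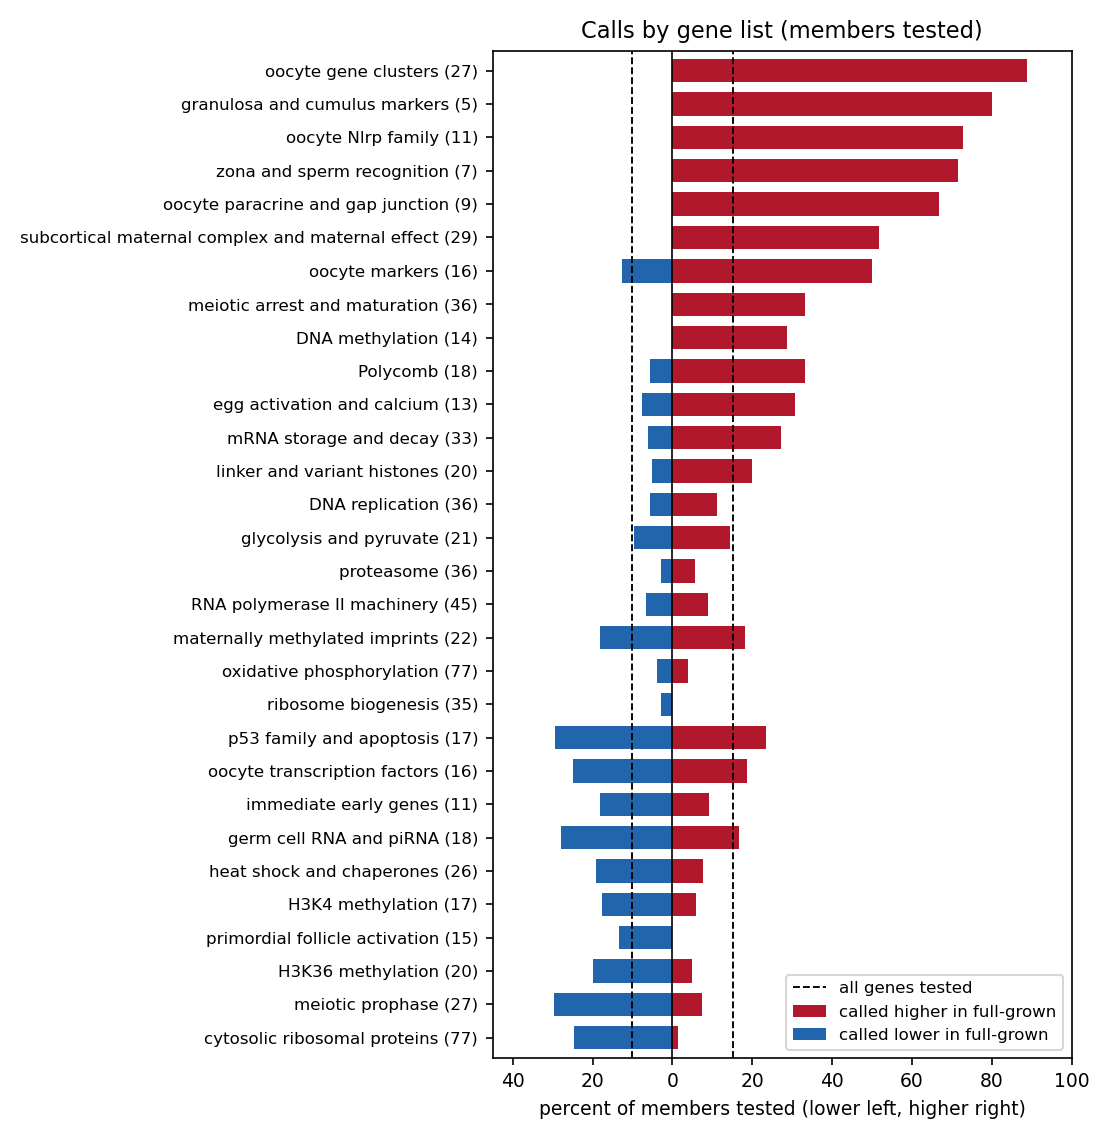
Percent of the tested members of each gene list that were called lower (bars to the left) or higher (bars to the right) in full-grown oocytes, with the number tested in parentheses and dashed lines at the 10.0% lower and 15.2% higher of all genes tested. The oocyte gene clusters (88.9%), the granulosa and cumulus markers (80%, of 5 tested), the Nlrp family (72.7%) and the zona genes (71.4%) lie far right of the dashed line. The granulosa and cumulus markers called passed the filter through the full-grown libraries, so their bar is no measure of enrichment. The same holds for the bars of the oocyte gene clusters and the Nlrp family. Some of their members passed the filter through the full-grown libraries alone and could not be called lower. Meiotic prophase (29.6%) and p53 family genes (29.4%) reach furthest left. Lists with under 5 members tested are left out.

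Outside the lists, the largest changes by the naming rule held further genes of the oocyte and some better known from other tissues. Plac8 had 1015 and 1255 FPKM in full-grown libraries and was listed at 0 in both P7 libraries. Gnrh1, the precursor of gonadotropin-releasing hormone, had 478 and 407 FPKM in full-grown libraries and 0.462 and 0 FPKM in P7 libraries (change 8.97). Miox, which breaks down inositol, had 716 and 914 FPKM in full-grown libraries and 7.52 and 0.599 FPKM in P7 libraries (change 8.24), with 293 FPKM in the Dnmt3l control library. Cpa1, a digestive carboxypeptidase, had 281 and 372 FPKM in full-grown libraries and was listed at 0 in both P7 libraries. The remainder of the 20 largest were Obox2, Fbxw14, Fbxw16, Fbxw19, Fbxw20, Upp1, Umodl1, Ifitm6, Mfsd2a and the histone gene Hist1h2aa, with the genes described above. All 20 were called as well with the Dnmt3l control library in place of the Setd2 controls.

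The largest falls were smaller than the largest rises. Crabp1, which binds retinoic acid, had 0.0777 and 0.757 FPKM in full-grown libraries and 299 and 153 FPKM in P7 libraries (change -6.83). Maged1, of the MAGE family, had 2.93 and 4.11 FPKM in full-grown libraries and 630.4 and 675 FPKM in P7 libraries (change -6.73). Hes1, a target of Notch signalling, had 0.0985 and 0.0788 FPKM in full-grown libraries and 71.6 and 52.6 FPKM in P7 libraries (change -5.38). Eif4ebp1, a translational repressor under mTOR control, had 3.67 and 4.24 FPKM in full-grown libraries and 284 and 253 FPKM in P7 libraries (change -5.31). Xbp1, of the unfolded protein response, had 1.16 and 2.12 FPKM in full-grown libraries and 137 and 145 FPKM in P7 libraries (change -5.32). Malat1, Ptgds, Mageb4, Ado, Churc1, Fam219b, Ctsf, Nupr1 and Ttyh2 were others whose Dnmt3l control value also lay far below P7. Another 3 were not called with that library in place of the Setd2 controls. Slc39a1, a zinc importer, had 1.24 and 0.772 FPKM in full-grown libraries and 161 and 149 FPKM in P7 libraries, with 29.3 FPKM in the Dnmt3l control library. Cbx3 (HP1 gamma) had 1.77 and 2.51 FPKM in full-grown libraries and 204 and 178 FPKM in P7 libraries, with 36.4 FPKM in the Dnmt3l control library. The pseudogene Atp6v0c-ps2, whose reads may be shared with its parent gene, had 6.92 and 0.000621 FPKM in full-grown and 231 and 207 FPKM in P7 libraries. In the Dnmt3l control library it had 297 FPKM, above P7.

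Gene order and transcript length were not used by the rule, and the genes called lay near all genes tested in both, with the widest gap among neighbours of genes called higher. Of 1728 genes called higher that could be placed in the RefSeq gene order of GRCm38.p6, 34.4% had a gene called higher next to them among the genes tested, against 27.3% of all genes placed. For the 1150 placed genes called lower, 22.9% had a neighbour called lower, against 19.0% of all. The median transcript length was 1360 nt for genes called higher and 1220 nt for genes called lower, against 1340 nt for all tested, and the median change ran from -0.04 to 0.04 over 4 classes of length of about equal size.

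Knockout oocytes of the same stages, deposited in the same tables, share no library with the controls. Setd2 had 0.968 and 0.927 FPKM in full-grown knockout libraries and 4.75 and 4.35 FPKM in full-grown control libraries, and 3.67 and 3.21 FPKM in P7 knockout libraries (labelled Setd2-/-) and 4.33 and 6.68 FPKM in P7 control libraries. The same rule called 1947 of 11384 genes higher in full-grown than in P7 knockout oocytes (17.1%) and 1183 lower (10.4%). Of the genes called higher, 1418 were called in both, 80.8% of the control list and 72.8% of the knockout list. Of those called lower, 848 were called in both, 73.2% of the control list and 71.7% of the knockout list, and none was called in opposite directions. The genotypes share tables as well as stages, so this overlap does not tell stage from table either.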

How the data were processed

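RNA-seq of control mouse oocytes was analysed from the FPKM values that the authors deposited for 22592 gene symbols. Libraries were made by Smart-seq2, per the labels' protocols, which primes cDNA at poly(A) tails, and the submitters' processing notes name mm9, TopHat2 2.0.11 and Cufflinks 2.0.2, with no parameters. Strand, read assignment among copies and any scaling between tables are not given in the sources used here.

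The full-grown and P7 tables were joined by gene symbol, and libraries were grouped by title. Levels were taken as log2(FPKM + 1), which understates changes of low genes, and genes needed at least 1 FPKM in at least 2 of 4 libraries. Changes were centred on their median (-0.46) because it exceeded 0.1 in size. No test was run: a call needs a change of at least 2 in size and no overlap of libraries. The calling code was tested on simulated data. Python 3.11.15, pandas 2.3.3 and numpy 2.4.6 were used.

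Genes named are Setd2 and Dnmt3l, then the 20 called genes with the largest change in each direction and at least 20 FPKM in both libraries of the higher stage, then, for each list and direction, up to 4 called genes with at least 5 FPKM. Symbols without an established name, olfactory and pheromone receptors and small RNAs were left out, and 1 gene that met the rule is not reported here. Genes named beyond the rule, such as Zp3, Gja4, Gpr3, Khdc3, Ooep and those not called, were chosen after their values were seen. The libraries compared and the gene lists were chosen with earlier results of these data known. Scaling, centring, pseudocount, filter, fold, single libraries and the Dnmt3l control library were varied.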

Additional observations from a re-analysis of the deposited data

Results flagged for a closer look

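Among 191 genes taken up by the naming rule or the text and measured in both genotypes, 1 had both full-grown knockout libraries on one side of the P7 knockout libraries, relative to the median change, and both full-grown control libraries on the other side of theirs. Tbpl2 had a change of 0.20 in knockout oocytes and of -0.66 in control oocytes on the log2(FPKM + 1) scale. Its levels were 30.0 and 31.1 FPKM in full-grown knockout libraries and 37.3 and 48.0 FPKM in P7 knockout libraries, against 22.8 and 18.8 FPKM in full-grown control libraries and 42.6 and 50.2 FPKM in P7 control libraries. The difference between the genotypes was not tested, and the gene was called in neither. The side it falls on depends on the centring, since full-grown levels lie below P7 levels in both genotypes as deposited.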

How the results depend on the processing

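No paired analysis was possible because the result comes from no test. Leaving out each library in turn gave 1713 to 1804 genes called higher and 1172 to 1225 lower. Without centring, genes called lower numbered 1884, and in knockout oocytes 1198 were higher and 2274 lower. A pseudocount of 0.1 gave 2154 lower, 848 between full-grown tables and 2239 lower in knockout oocytes. With a pseudocount of 5, 784 were higher and 423 lower, with 198 between tables, and 818 higher and 498 lower in knockout oocytes. With no filter, 1283 were higher and 1818 lower, and in knockout oocytes 1320 were higher and 2027 lower. At a fold of 8, 857 were higher and 337 lower, with 112 list members called, 154 genes between tables, and 948 higher and 343 lower in knockout oocytes. At a fold of 2 these were 3353, 3104, 404, 2056, 3320 and 3087. Fewer or more genes pass these by construction. The other alternatives, 3 rescalings, a filter at 5 FPKM and the Dnmt3l control library, kept the counts of the control comparison within 1.5 times.

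All 40 of the largest rises and falls were called under each alternative other than the Dnmt3l control library, with which 3 were not: Slc39a1 (-1.58), Cbx3 (-1.57) and Atp6v0c-ps2, which reversed to 1.23. The cause was not tested. Depth limits the P7 libraries most, with about 5.31 M fragments in the shallower, and FPKM values cannot show whether total RNA per oocyte differed between stages.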
